A study of Arabidopsis thaliana with 4 samples.

Results

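The array described here compared Arabidopsis thaliana plants fed on by thrips for 10 h with untreated plants. Its members were chosen as every cDNA clone on the 10 h array with at least 1 spot that the scanner flagged as usable, and 739 of the 1182 clones met that rule. Of these, 687 had at least 2 usable spots and 52 had 1. The series holds 4 arrays, 1 each for 2, 5, 10 and 24 h of feeding, so no comparison could be tested, and what follows describes these libraries only.

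Both groups were wild-type plants of the ecotype Columbia, 21 days old and grown in soil at 22 °C with 16 h of light and 8 h of dark. Each fed plant was kept in a ventilated cylinder with 25 adult females of the western flower thrips (Frankliniella occidentalis), which had been starved for 3 h. The labels call the sample both leaves and the whole plant without roots. Each sample held 30 to 70 plants, and plants of 3 to 4 experiments were pooled to extract RNA. The submitters hybridised each RNA to 2 to 3 arrays, of which 1 per time was analysed here. On all 4 arrays the label was red Cy5 for fed and green Cy3 for untreated plants, with no dye swap, so a difference between the dyes and a difference between the plants cannot be told apart for a clone. In pooled plants, fewer cells of a type and less RNA per cell cannot be told apart either.

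Western flower thrips pierce single plant cells and suck out their contents. Plants answer such wounding mainly through jasmonate, a hormone made from chloroplast lipids, which is joined to isoleucine to become active, switches on defence genes and is then broken down by oxidation. In Arabidopsis, one store of defence proteins is the ER body, a compartment of the endoplasmic reticulum that holds beta-glucosidases. After cell damage these enzymes meet jacalin-related lectins and lipase-like proteins in large complexes.

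Several of the highest named clones at 10 h belonged to these processes or to the cold and drought response, while some genes for secreted proteases, surface proteins and chloroplast functions stood among the lowest. Values below are log2 ratios of fed over untreated plants after loess, which levelled the array along clone brightness. Each ratio is thus relative to clones of like brightness. The SD given with it is over a clone's spots and is technical. A clone was counted as higher or lower when its log2 ratio was at least 1 in size, its usable spots shared the direction, and its brighter dye stood above background. By that rule 161 clones were higher and 165 were lower, which is 21.8% and 22.3% of the 739 clones. The same counts were 140 (19.5%) and 90 (12.5%) at 2 h, 163 (19%) and 135 (15.8%) at 5 h, and 140 (19.5%) and 115 (16%) at 24 h, so the share counted lower was largest at 10 h. A gene name was found for 231 of the 739 clones, and 46 of these were counted higher and 52 lower.

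These directions are relative to clones of like brightness on the same array. The median clone stood 1.21 above the lambda DNA spots and 0.97 above the alpha tubulin spots in log2 ratio on this array. Relative to lambda DNA, 408 clones were counted higher and 47 lower; relative to alpha tubulin, 361 and 61; and in the authors' deposited value table, 341 and 82. The lambda scale also leaves out the levelling by brightness, so it moved single clones by 0.96 to 3.34, and 242 of the 380 clones below zero stood above zero on it.

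Among the genes of jasmonate itself, AT5G05600 (also called JOX2), an oxygenase that hydroxylates jasmonate to an inactive form, had the highest ratio of any named clone. Its 2 spots read 500 and 431 units in untreated plants and 19290 and 15894 units in fed plants, against local backgrounds of 117 and 129 for Cy3 and 369 and 348 for Cy5. The log2 ratio was 4.83 ± 0.01 (SD, 2 spots), or 28.4-fold, and it stood at 3.72, 4.58 and 4.71 at 2, 5 and 24 h. The 10 h value was thus the highest of its 4, by little. The other oxygenase of this list with usable spots, AT2G38240 (JOX4), stood at 0.19 ± 0.30 with untreated plants not above background, beside 1.49, 3.06 and 0.37 at the other times. Its 10 h value was 2.02 with the array centred on its median in place of loess, so it depends on the levelling of dim clones.

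OPCL1, a CoA ligase of jasmonate synthesis, read 756 and 770 units in untreated and 4821 and 4757 units in fed plants, a log2 ratio of 2.15 ± 0.05. It stood at 1.86, 1.75 and 1.49 at 2, 5 and 24 h. JMT, which makes methyl jasmonate, is on the array but had no usable spot at 10 h.

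Of the genes known to respond to jasmonate or wounding 4 were measured, with 2 counted higher and none lower. Over all 739 clones 21.8% were counted higher and 22.3% lower. This list and those below were chosen with earlier results of these data known, so their counts are not a test. AT3G28220, a TRAF-like protein, was at 231 and 260 units in untreated plants, not above background, and at 5154 and 4983 units in fed plants. Its ratio was at least 15.2-fold. A least fold such as this holds only for the background correction and levelling used. FAMT, a farnesoic acid methyltransferase, was at 241 and 258 units in untreated and 1806 and 2370 units in fed plants, at least 5.75-fold higher. Both also stood high at every other time, with log2 ratios of 3.68, 4.46 and 5.41 for AT3G28220 and 4.07, 4.51 and 3.22 for FAMT. THI2.1, a thionin, had a ratio of -0.54 ± 0.13 at 10 h against 2.55 at 24 h, and the defensin PDF1.2 stood at -0.58 on 1 spot at 10 h and 2.82 at 24 h. Neither was counted at 10 h, whereas AT1G66100, a thionin outside the list and picked out after its values were seen, was counted higher at 1.58 ± 0.23.

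The ER body and lectin genes were the list with the most members counted higher, 7 of 8 usable clones, with none lower and a median log2 ratio of 1.91. The same median over all 739 clones was -0.05, and 21.8% of them were counted higher. AT1G54010, a lipase-like protein of these complexes, read 583 and 652 units in untreated plants and 16445 and 15859 units in fed plants, a ratio of 4.31 ± 0.14. It stood at 1.82, 3.09 and 3.48 at 2, 5 and 24 h.

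AT1G52000, a jacalin-related lectin, read 1336 and 1430 units in untreated and 30286 and 30402 units in fed plants. Its ratio was 3.52 ± 0.08, and it lay between 3.21 and 4.04 at the other times. The lectin JAL34 stood at 3.46 ± 0.55, the widest spot spread of the 12 highest with both dyes above background, and its spots gave 3.07 and 3.85. NAI2, which is needed to form ER bodies, stood at 2.26 ± 0.19.

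The ER body beta-glucosidases were counted higher with smaller ratios. PYK10, the main one in roots, read 3602 and 3703 units in untreated and 21295 and 20273 units in fed plants, and BGLU22 and PYK10 stood at 1.55 ± 0.28 and 1.50 ± 0.09. BGLU21 had untreated plants not above background and was at least 1.76-fold higher, and it was not counted with print-tip loess (0.83), without background correction (0.82), with mean pixels (0.87) or on its last spot alone (0.99). In time order PYK10 had -0.27, 0.42, 1.50 and 2.86, so 10 h lay between its early and its late values. The lectin JAL33 stood at -0.00 ± 0.24, with untreated plants not above background, and at 1.01 with median centring in place of loess.

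These 3 glucosidases are also root markers, and the samples are labelled as without roots. Of the 8 root markers, 4 are on the array and 3 were usable, these same glucosidases, while PER27 had no usable spot. All 3 were counted higher, beside 21.8% of all 739 clones, but BGLU21 was not counted under some settings given above. None of the 13 leaf markers is named on the array, so the labelled tissue could not be checked. The part of root tissue in the glucosidase values was not tested.

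Cold- and abscisic acid-responsive genes were counted higher for 3 of 5 usable clones, none lower, with a median of 1.04. Over all 739 clones 21.8% were counted higher. The 3 include KIN1, which was not counted under some settings given below. KIN2, a small hydrophilic protein of cold and drought, was at 223 and 250 units in untreated plants, not above background, and at 2797 and 3534 units in fed plants, a ratio of at least 9.43-fold. COR15A, which protects chloroplast membranes in freezing, read 211 and 350 units in untreated and 1987 and 4332 units in fed plants, a ratio of 3.05 ± 0.19. It was classed with both dyes above background, for which 50% of a clone's spots suffice. Its untreated spot of 211 units, over a background of 119, was dimmer than either untreated spot of KIN2. COR15A had no usable spot at 24 h and stood at 1.07 on 1 spot at 2 h and 1.34 ± 0.84 at 5 h.

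KIN1, at least 1.64-fold higher, is near-identical to KIN2 and its probe may read both. It was not counted with print-tip loess (0.53), without background correction (0.97), with offset 0 (0.93) or on its last spot alone (0.88). COR15B, a close copy of COR15A, stood at 0.35 ± 0.60 with untreated plants not above background, and the dehydrin COR47 stood at 0.31 ± 0.09. Neither COR15B nor COR47 was counted, but COR15B stood at 2.08 with median centring in place of loess.

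Other enzymes of defence and detoxification stood higher in part, beside 21.8% of all 739 clones counted higher. Of the 7 listed class III peroxidases on the array 3 were usable and 1, AT5G64120 (PRX71), was counted, with 510 and 473 units in untreated and 3536 and 3475 units in fed plants and a ratio of 2.31 ± 0.04. AT2G37130 (PRX21) and AT4G37520 (PER50) stood at 0.67 ± 0.22 and 0.46 ± 0.03 and were not counted. AT1G44970, a class III peroxidase outside the list and picked out after its values were seen, was counted lower at -1.36 ± 0.06. Of 3 usable berberine bridge enzyme-like oxidases, AT4G20830 and AT4G20840 were counted higher, at 1.97 ± 0.03 and 1.73 ± 0.14. AT1G26380 was not counted, at 0.34 on 1 spot with untreated plants not above background. Relative to lambda DNA it stood at 1.99 and was counted higher.

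ALDH7B4, an aldehyde dehydrogenase that removes reactive aldehydes, stood at 2.01 ± 0.07 (1.04 with print-tip loess) and the alkenal reductase AER at 0.95 ± 0.08. Among leucine-rich repeat proteins, AT2G34930 was at least 3.36-fold higher and AT3G20820 and DRT100 were counted lower. AT2G43530, a defensin-like protein, and AT2G15960 were at least 2.83-fold and 1.95-fold higher. AT2G18690 stood at 2.03 ± 0.06 and AT5G35735 at 1.90 ± 0.33. With print-tip loess AT2G15960 (0.77) and AT2G18690 (0.84) were not counted.

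**Figure D1:**
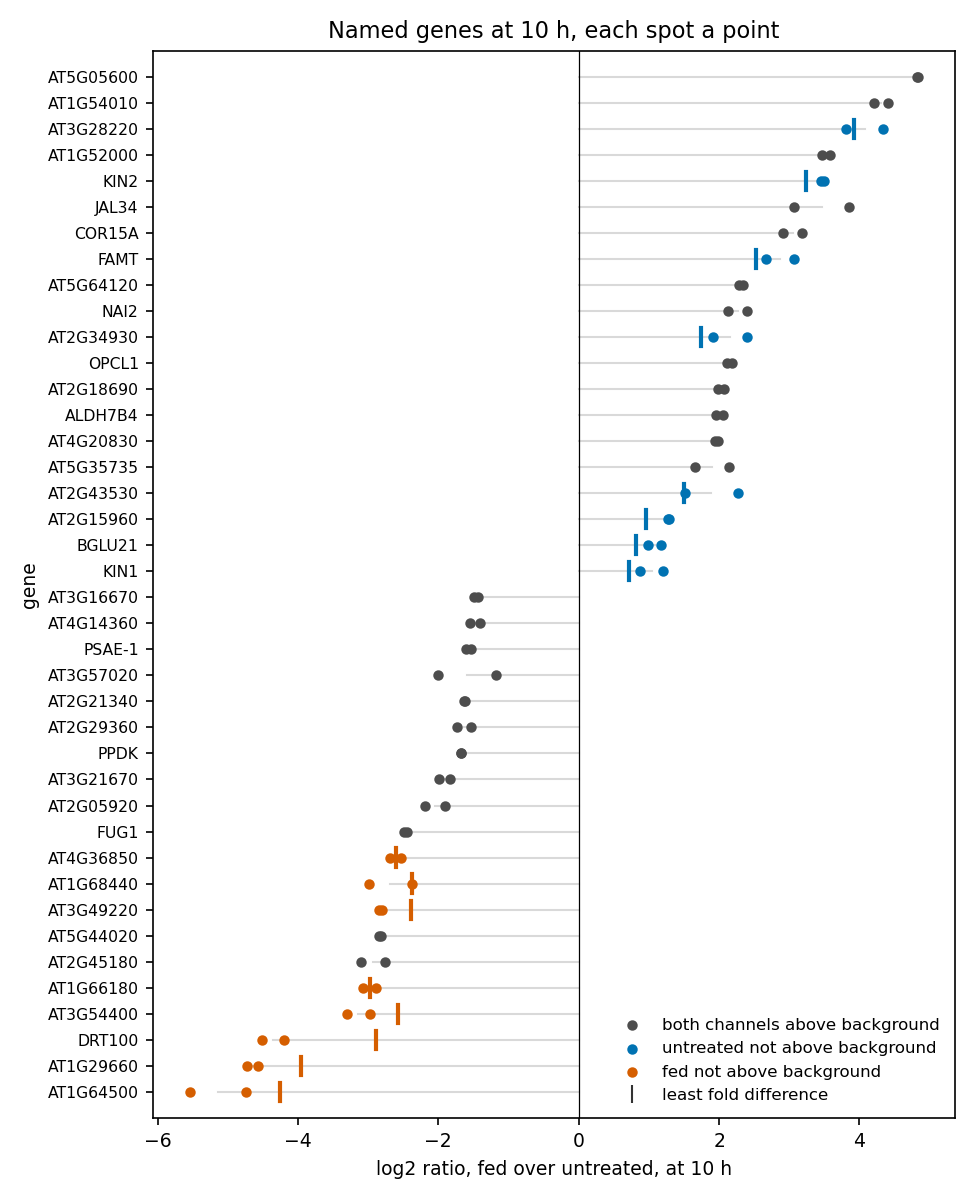
Log2 ratio of fed over untreated plants at 10 h for the named genes furthest from 0, with each spot drawn as a point and genes ordered by their mean. Bars across the row mark the least fold difference where 1 dye was not above background; the 8 orange genes at the lower end have measured means between -5.14 and -2.61, and most of their bars lie nearer to 0.

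Among lists with at least 3 usable members, the lowest medians were those of secreted proteases and of cell wall and surface genes. All 4 usable members of the cell wall and surface list were counted lower, with a median of -2.88, as were the 3 listed secreted proteases, with a median of -2.98, and the 2 usable listed chloroplast genes. Over all 739 clones 22.3% were counted lower. These lists were chosen with earlier results of these data known, so their counts and medians are not a test of the gene classes. Outside the lists, and picked out after their values were seen, the aspartyl protease family genes AT1G03220 and AT5G19120 stood at 0.50 ± 0.32 and 0.04 ± 0.02 and were not counted, and the plastid enzyme DPE1 was counted higher. AT2G45180, a lipid transfer protein-type gene, read 2510 and 2634 units in untreated and 707 and 624 units in fed plants, a log2 ratio of -2.93 ± 0.24. AT5G44020, an acid phosphatase, read 5516 and 5473 units in untreated and 1282 and 1326 units in fed plants, a ratio of -2.84 ± 0.02. FUG1, a chloroplast translation initiation factor, read 6480 and 6620 units in untreated and 1995 and 2007 in fed plants, a ratio of -2.47 ± 0.03. For each of these 3 clones both spots were brighter in untreated than in fed plants.

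At the other times AT2G45180 stood at -1.06, -1.59 and -2.61, AT5G44020 at -0.67, -1.22 and -2.31 and FUG1 at -1.24, -2.02 and -1.44. All 3 were lowest at 10 h. The other proteases were the subtilase AT2G05920, at -2.05 ± 0.20, and the aspartyl proteases AT1G66180 and AT3G54400, at least 7.88-fold and 5.95-fold lower. AT3G49220, a pectin methylesterase, was at least 5.24-fold lower after loess, but its log2 ratio relative to lambda DNA was -0.82.

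The remaining lowest genes with both dyes above background had ratios from -1.91 to -1.47. They were AT3G21670, a nitrate transporter of the NPF family, at -1.91 ± 0.11, PPDK, the pyruvate orthophosphate dikinase, at -1.68 ± 0.01, AT2G29360 at -1.64 ± 0.14, and AT2G21340, a MATE-type transporter, at -1.63 ± 0.01. AT3G57020, a strictosidine synthase-like gene, stood at -1.59 ± 0.59, with spots at -2.01 and -1.18. PSAE-1, a subunit of photosystem I, stood at -1.57 ± 0.05, AT4G14360 at -1.48 ± 0.11 and AT3G16670 at -1.47 ± 0.04. AT1G73110, a Rubisco activase-like gene, was at least 4.15-fold lower. Relative to lambda DNA, 11 of the lower genes named in the text were no longer counted, among them AT1G73110 and the 8 with ratios from -1.91 to -1.47.

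Of the other listed genes, the ethylene-regulated cell wall protein ECS1 stood at -0.68 ± 0.10, and the transcription factors STZ, WRKY53 and EIN3 at 0.04, -0.22 and -0.34, none of them counted. STZ, with untreated plants not above background, stood at 1.26 with median centring in place of loess, and WRKY53, on 1 spot, at 1.24 with print-tip loess. AT3G15450 of the sugar and dark list was counted higher at 1.32 ± 0.21. None of the listed genes for jasmonate signalling, salicylate, glucosinolates, heat shock or housekeeping is named on the array. Outside the lists, and picked out after their values were seen, the glucosinolate transporter GTR1 and AT2G25450, an oxygenase of glucosinolate side chains, were counted higher at 1.25 ± 0.28 and 1.08 ± 0.09, and the HSP70 gene AT3G09440 stood at -0.17 ± 0.03.

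Many of the furthest ratios at 10 h rest on a dye close to its background. A dye was taken as above background where, in 50% or more of a clone's usable spots, the median foreground was over the local background by more than 2 of its SD. By that measure 629 clones (85.1%) had both dyes above background, 73 (9.88%) had only untreated plants not above it, 36 (4.87%) had only fed plants not above it, and 1 had neither dye above it. The counts of clones with untreated plants not above background were 26, 46 and 40 at 2, 5 and 24 h, and with fed plants not above background 2, 17 and 7. The 10 h array thus held the most clones of each kind. Its Cy5 background was also the highest of the 4, a median of 336 units against 181, 237 and 211, and its Cy5 detector gain was 60 against 58, 65 and 60. The part of the background in these counts was not tested.

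The 36 clones dim in fed plants were all counted lower, with ratios from -6.99 to -1.39 and a median of -2.67, and 16 of them are named. All but 1 of the usable clones had some dye above background, so being dim in fed plants largely fixes that direction. Their Cy5 signal ran from 245.5 to 635.5 units with a median of 418.75, beside a Cy5 background of 339, while their Cy3 signal ran from 463 to 5470 units. In 7 of them the fed signal lay at or below its background, which happened for 0 clones on the other arrays. They lay in 10 of the 12 print blocks, at most 6 in one.

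At the other times most of these clones were measurable in fed plants. Their fed signal stood above background in 33 of 34 usable clones at 2 h, 29 of 33 at 5 h and 24 of 28 at 24 h. The median ratios there were -1.08, -1.95 and -1.54. The least fold differences at 10 h ran from 2.63 to 40.0 with a median of 5.22, and 9 were at least 10-fold.

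AT1G64500, a glutaredoxin family protein, had the lowest named ratio. Its fed signal was 305 and 269 units over backgrounds of 316 and 322, and its untreated signal was 2539 and 2717 units, so fed plants were at least 19.2-fold lower. It stood at -1.28, -2.81 and -1.87 at 2, 5 and 24 h, with both dyes above background. AT1G29660, a GDSL-type lipase, read 326 and 379 units in fed plants over backgrounds of 345 and 393, and 2264 and 2057 units in untreated plants, at least 15.5-fold lower. DRT100, a leucine-rich repeat protein, read 287 units in both fed spots and 754 and 693 units in untreated plants, at least 7.37-fold lower. For these 3 the size of the log2 ratio depends on how background is handled, so a least fold is given. The least fold rests on the same background correction and levelling.

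AT4G36850, a PQ-loop protein, was at least 6.10-fold lower and AT1G68440 at least 5.20-fold lower. Relative to lambda DNA the log2 ratio of AT1G68440 was -0.79. The 73 clones dim in untreated plants had a median ratio of 0.97 and a highest of 4.63. Of these 73 clones 34 were counted higher, beside 21.8% of all 739 clones, and 29 are named. By the counting rule a clone dim in untreated plants cannot be counted lower, so the class fixes that direction. The Cy3 signal of the 73 clones ran from 137 to 361 units and their Cy5 signal from 586 to 7402 units. A least fold difference could be given for 58, with a median of 2.02 and a highest of 21.3, and 7 were at least 10-fold.

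**Figure D2:**
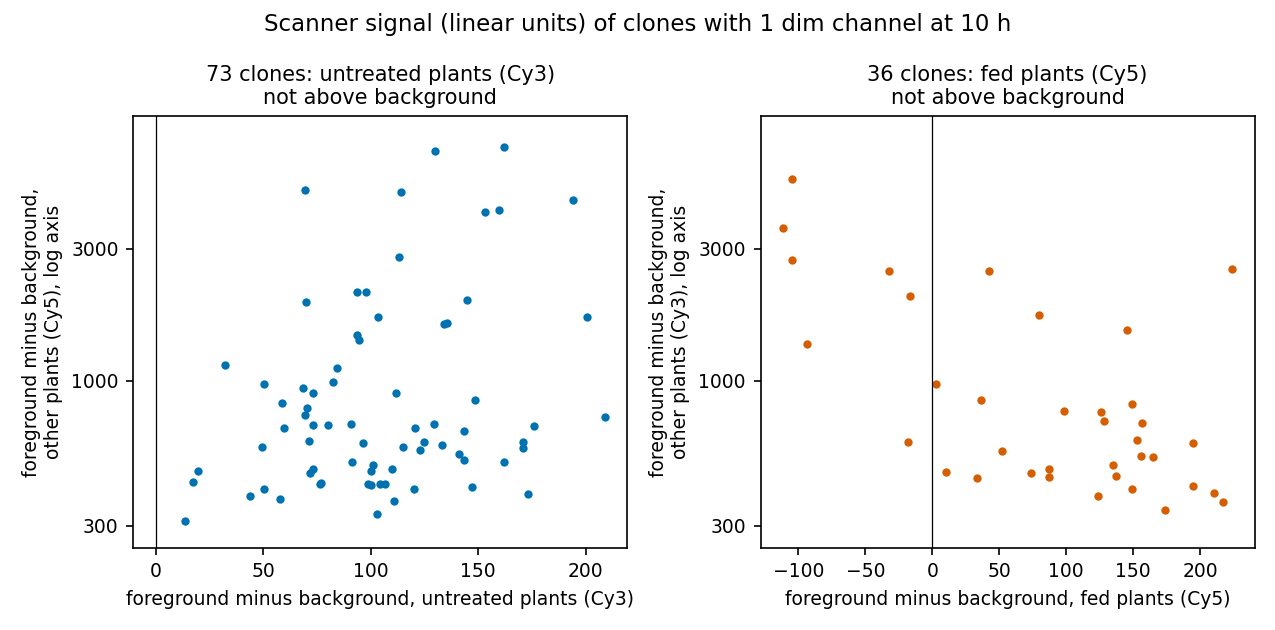
Scanner signal minus local background, in linear units, for the clones with 1 dim dye at 10 h: left, 73 clones dim in untreated plants; right, 36 clones dim in fed plants, with the brighter dye on a log axis. On the right 7 points lie left of 0, where the fed signal was at or below its background; no point on the left does.

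**Figure D3:**
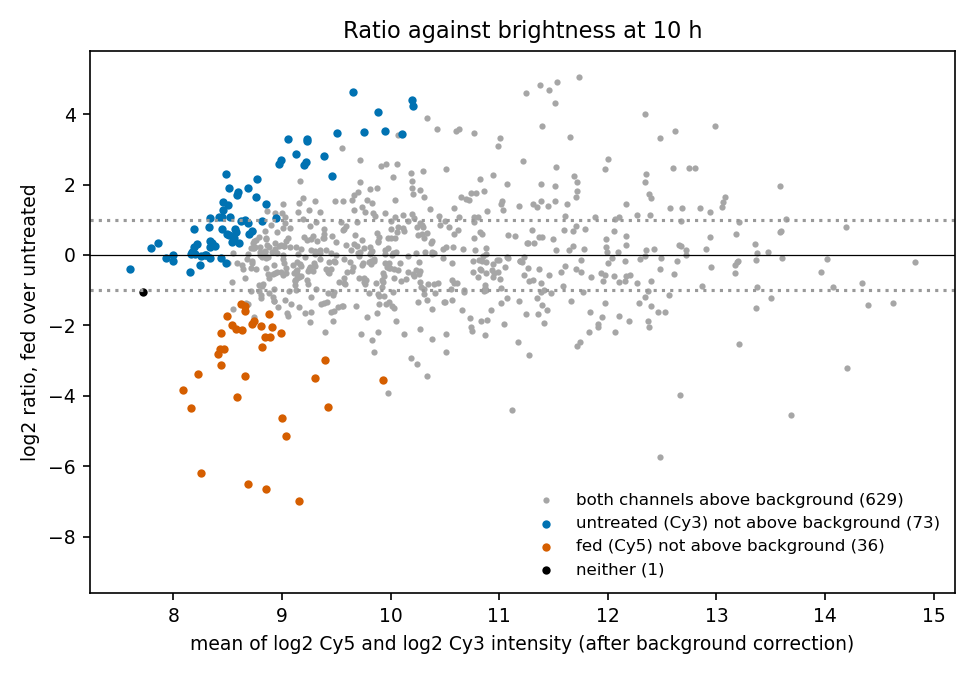
Log2 ratio of fed over untreated plants against mean log2 signal of both dyes for the 739 clones at 10 h, colored by which dye stood above background. The 36 clones dim in fed plants lie between -6.99 and -1.39, and the grey points with both dyes above background reach from -5.74 to 5.05.

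The ratios were spread more widely at 10 h than at the other times. The SD over clones was 1.60 at 10 h and 1.11, 1.29 and 1.28 at 2, 5 and 24 h, and the interquartile range was 1.64 against 1.35, 1.37 and 1.39. Over the 607 clones usable at all times the SDs were 1.13, 1.40, 1.69 and 1.29 in time order. With both dyes above background at every time, 547 clones were left and the SDs were 1.03, 1.20, 1.42 and 1.18. The source of the wider spread was not tested.

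Over the 687 clones with a pair of spots the SD of the ratio was 1.65 for either spot, the SD of the difference between them was 0.315, and 92.9% agreed in sign. The SD within a print block ran from 1.35 to 1.91 at 10 h, with a median of 1.57, against medians of 1.12, 1.31 and 1.25 on the other arrays. With the clones split evenly by brightness it was 1.57 for the dim, 1.55 for the middle and 1.67 for the bright ones.

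With the least fold used wherever 1 dye was dim, 65 clones were counted higher and 59 lower by at least 4-fold at 10 h, beside 43 and 11 at 2 h, 69 and 29 at 5 h, and 51 and 24 at 24 h. By at least 8-fold the counts were 29 and 18 at 10 h, beside 12 and 0, 24 and 6, and 19 and 0. Among clones with both dyes above background, 21 were higher and 8 lower by at least 8-fold at 10 h, beside 11 and 0, 24 and 5, and 19 and 0. The ratio at 10 h was the largest in size of the 4 for 246 of 607 clones, and stood at least 1 below the median of the other times for 67 and above it for 33.

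**Figure D4:**
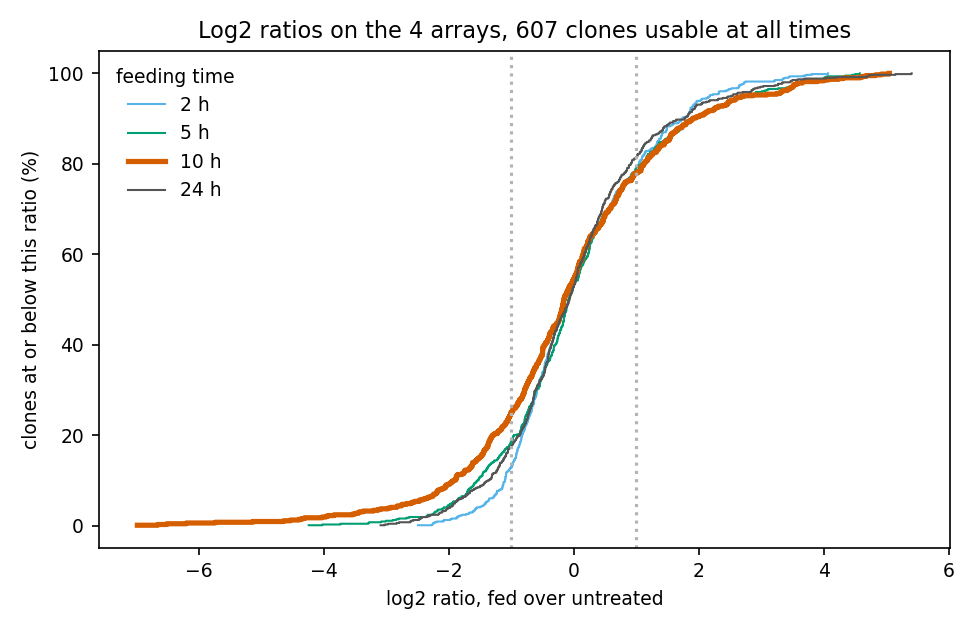
Cumulative share of the 607 clones usable at all times against log2 ratio of fed over untreated plants, with 1 line per feeding time and dotted lines at a 2-fold difference. The 10 h line rises over the widest range, with an SD of 1.69 against 1.13, 1.40 and 1.29 at 2, 5 and 24 h.

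Of the 10 highest clones 7 have no gene name here, and of the 10 lowest 7, close to the 68.7% of all usable clones without one. In all, 4 of the highest and 7 of the lowest had 1 dye not above background. The highest clone of all, RAFL09-95-D06, read 602 and 456 units in untreated and 28300 and 21838 units in fed plants, a ratio of 5.05 ± 0.17. The lowest, RAFL04-17-F21, read 5231 and 5709 units in untreated and 262 and 293 in fed plants over backgrounds of 373 and 392, at least 40.0-fold lower. The lowest with both dyes above background was RAFL05-13-J04, with 28910 and 31125 units in untreated and 1209 and 1333 in fed plants, a ratio of -5.74 ± 0.02. At the other times RAFL05-13-J04 stood at -1.23, -2.34 and -0.65.

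Named genes that stood furthest above their other times at 10 h were KIN2, JAL34, the starch-degrading enzyme DPE1, AT2G25510 and the beta-glucosidase BGLU16. KIN2 had log2 ratios of 1.74, 1.77 and 0.48 at 2, 5 and 24 h beside 3.47 at 10 h, and BGLU16 had 0.43, 0.45 and -0.26 beside 1.69. DPE1 stood at 1.04 against -0.44, 0.67 and -0.77. With print-tip loess DPE1 (0.64) and BGLU16 (0.83) were not counted at 10 h. AT2G25510 was not counted, at -0.51 against -2.08, -1.80 and -0.43.

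By fitted ratio the 5 furthest below were AT1G64500, AT1G29660, CCR2, AT4G36850 and DRT100. Each had 1 dye not above background at 10 h, so these distances are not measured. DRT100 was dim in fed plants at 2 and 24 h too, at least 5.44-fold and 5.95-fold lower there. CCR2, a cinnamoyl-CoA reductase of the lignin pathway, stood at -0.17 on 1 spot with untreated plants not above background, beside 1.09, 2.18 and 1.85. With median centring in place of loess its 10 h value was 1.32, and with print-tip loess 3.12. AT4G36850 stood at 1.48, -0.65 and -3.09 at 2, 5 and 24 h beside -2.61 at 10 h. Across all clones the furthest was the unnamed RAFL04-16-B18, with 398 and 554 units in untreated and 14755 and 14599 units in fed plants at 10 h. Its ratio was 4.59 ± 0.41 there, and -0.98, 2.72 and -1.74 at 2, 5 and 24 h.

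**Figure D5:**
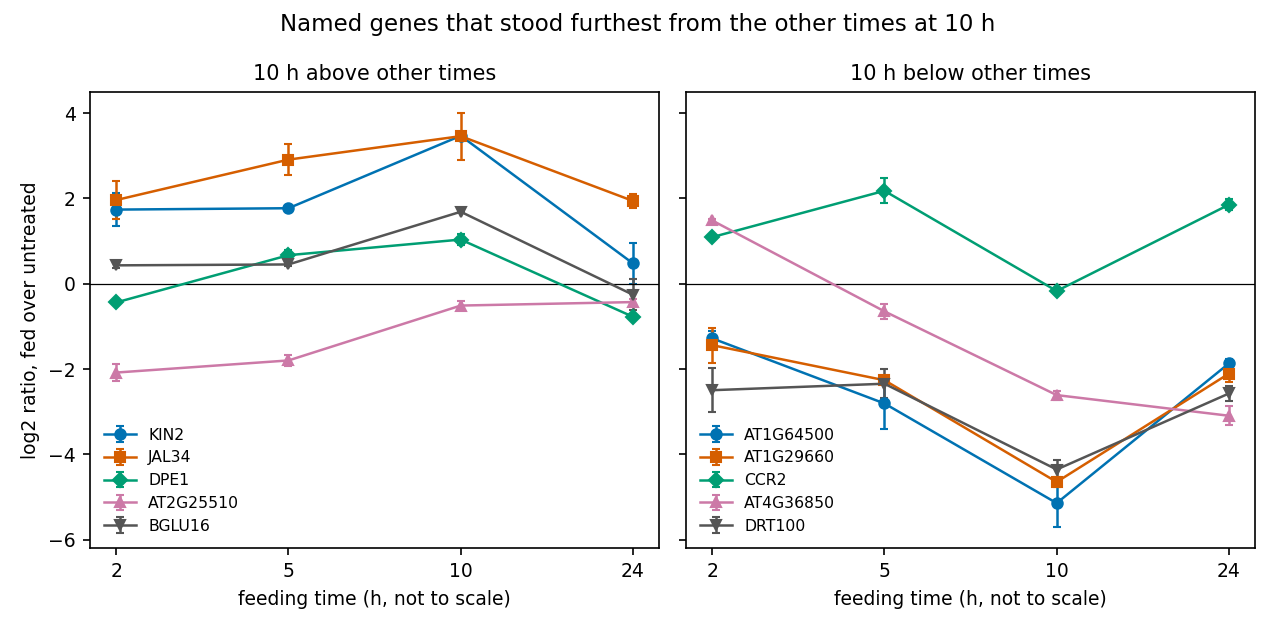
Log2 ratio of fed over untreated plants at each feeding time for the 5 named genes furthest above and the 5 furthest below their other times at 10 h, with error bars for the SD over spots where there were 2. KIN2 peaks at a fitted 3.47 at 10 h; KIN2 and all 5 genes on the right had 1 dye not above background at 10 h, so their points there are fitted values, not measured distances.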

How the data were processed

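The authors' deposited scanner files hold linear intensity, foreground and local background, for either dye of a spot, and the percent of saturated pixels, per the file headers. The labels name ScanArray Express as the quantification software. The authors also deposited a value table, taken here as natural log Cy5/Cy3 ratios: across clones at 10 h it followed the scanner's log ratios with a slope of 0.968 and r of 0.992. How the authors scaled and centred it is not stated in the labels. Median intensities were background-corrected with limma 3.58.1 in R 4.3.3 (normexp, offset 50), normalized within the array by loess (span 0.3, 4 iterations, control and unusable spots at weight 0), and averaged over a clone's spots with flag 3, read as usable. Least folds came from single-dye values after loess and Aquantile scaling, against the lowest clone value above background. Where the fitted value of the dim dye lay above that lowest value, the least fold equals the fitted ratio, as for AT1G66180 and AT4G36850. The steps were tested on simulated data with planted log2 differences of 1.5 and 2, of which 97.1% and 100% were recovered. Of 606 unchanged clones 0 were counted. These unchanged clones carried only small random noise around a smooth dye trend, so the 0 was nearly fixed in advance. It does not measure false counts on the real array. No larger differences were planted and no least folds were computed in the simulation, so the extreme ratios and least folds of dim clones were not tested.

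Gene names came from the platform table and RefSeq's gene table (TAIR10.1, names only), with 415 of 1182 clones named. Genes named in the text are the 12 highest and 12 lowest counted clones with both dyes above background, the 8 largest least folds in each direction, the 5 clones furthest above and below the median of their other times, and every measured list member. Some genes outside the lists are named too, each marked in the text as picked out after its values were seen. Members and lists were chosen with earlier results of these data known. Lists by product text and promoter motifs were not run, since the tables used hold neither. The spread between fed plants or cultures is not measured, as each time has 1 array of pooled plants.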

Additional observations from a re-analysis of the deposited data

Results flagged for a closer look

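AT4G36850 was higher in fed plants at 2 h, with a log2 ratio of 1.48 and both dyes above background, and counted lower at 10 h, at -2.61 with fed plants not above background (at least 6.10-fold lower), a fitted difference of -4.09. This difference was not tested, since each time has 1 array. It was 1 of 3 clones counted in opposite directions at 10 h and at another time, beside the unnamed RAFL04-16-B18 and RAFL05-03-P08.

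Spots printed under gene names rather than clone names stayed outside the comparison, and 3 of these genes had usable spots at 10 h. RD29A, a dehydration- and cold-responsive gene, had a log2 ratio of 1.77 ± 0.08 (SD, 2 spots), beside 0.21, 1.51 and 0.12 at 2, 5 and 24 h. ETR1, an ethylene receptor, stood at -0.71 ± 0.37 and ERD8 at -0.36 ± 0.05. The negative control spots had no spot above background in either dye.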

How the results depend on the processing

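With lambda DNA, alpha tubulin or the authors' value table as the scale, 408, 361 and 341 clones were counted higher and 47, 61 and 82 lower, since these scales are not centred on the median clone. The SD of 1.60 became 1.82 with plain background subtraction, 1.40 with none, 1.85 with offset 0, 1.31 with spots of any flag, 1.74 in the value table, whether centred on its median clone or not, and 1.38 over clones with both dyes above background. The interquartile range of 1.64 became 1.90 with median centring, lambda DNA or alpha tubulin, 1.50 with print-tip loess, 1.80 with plain subtraction, 1.46 with none, 1.19 with any flag, 2.13 in the value table, centred or not, 1.51 over clones with both dyes above background and 1.79 over clones usable at all times. At a limit of 1 or 3 background SD, or with any flag kept, 24, 118 and 449 clones had untreated plants not above background (74 as reported, 1 of them dim in both) and 17, 65 and 418 had fed plants not above background (37 as reported). The 10 h SD was the widest of the 4 under all 8 background, normalization and spot settings tried across the arrays. Over 64 named genes and 912 alternatives, 467 values moved beyond the spot SD and 0 counted values changed sign. Of 48 genes counted, print-tip loess left 6 uncounted, lambda DNA 11 and alpha tubulin 7, while median centring added 5 that were dim in untreated plants. Centring the value table and keeping only clones usable at all times were chosen after seeing the data. No paired analysis was possible because no feeding time has a second array. Where a dye was not above background, a least fold is given for most counted genes. Fitted log2 ratios are given for uncounted genes and in places for counted ones, and they are not measured sizes. Both depend on the same background correction and levelling.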
